A study of Mus musculus with 20 samples.

Results

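The apolipoproteins are the proteins on the surface of the lipid particles that carry triglyceride and cholesterol in blood, and Mttp loads lipid onto the largest of them. The 10 genes described here are Apoa1, Apoa2, Apoa4, Apoa5, Apob, Apoc2, Apoc3, Apoe, Apom and Mttp. They were chosen by gene symbol, and each was found once among the 48440 Ensembl gene IDs of the deposited table.

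RNA from the gonadal fat pad and from the liver was sequenced in mice on a C57BL/6 background, of 2 genotypes. Wild-type mice are called WT, and mice whose genotype carries the label AdEpsKO, in a study of protein kinase C epsilon (gene Prkce) deficiency, are called KO. No label or note spells out AdEpsKO, and the cells in which Prkce was deleted are therefore not known. Both genotypes had been fed a high fat diet over 1 week and were fasted for 6 h before tissue was taken, so that no group shows lipoprotein genes on another diet. There were 5 mice in each group and therefore 5 libraries each of WT fat, KO fat, WT liver and KO liver. Neither age nor sex is stated.

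Apob is the structural protein of very low density lipoprotein (VLDL), and 1 copy of it stays with each particle from secretion to uptake. Mttp, the microsomal triglyceride transfer protein, lipidates Apob in the endoplasmic reticulum of hepatocytes and enterocytes. Apoa1 and Apoa2 are the main proteins of high density lipoprotein (HDL), Apoc2 activates lipoprotein lipase while Apoc3 restrains it, and Apoe is the ligand by which the liver clears remnant particles and is also made outside the liver, by macrophages and adipocytes among others.

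The libraries held from 12880933 to 17276907 expected counts in fat and from 13836370 to 20784145 in liver. Levels below are CPM, counts scaled to library size with TMM factors within a tissue, and "per kb" means divided by the length of the longest coding transcript. Where 5 values are given for a group, they stand in the order of library numbers 1 to 5. Prkce read 22.3 to 35.1 CPM in KO fat and 35.2 to 67.1 CPM in WT fat, without overlap (0.68% of genes tested separated with KO lower), and its KO to WT ratio of 0.615 (95% interval 0.450 to 0.841) had an adjusted p of 0.687 in edgeR's quasi-likelihood test. In liver the Prkce ranges overlapped. The summed levels of 14 adipocyte genes were 22488 to 41306 CPM in fat against 77 to 163 CPM in liver. Markers of other cells stood out in single libraries. KO fat 2 held bladder-type epithelial genes, with Upk3a at 382 CPM, WT liver 4 and WT liver 2 held the most skeletal muscle genes among liver libraries (summed 327 and 173 CPM) and WT fat 2 the most among fat libraries (1114 CPM), and WT fat 4 and KO fat 3 held the most Alb, which encodes serum albumin (470 and 416 CPM).

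Apoa1, Apoc3, Apoa4 and Apoa5 lie in that order within 43340 bases of chromosome 9 (GRCm38, GENCODE M21), Apoa1 at 46228580 to 46230466, Apoc3 at 46232933 to 46235636, Apoa4 at 46240696 to 46243459 and Apoa5 at 46268633 to 46271919. Apoc3 is on the minus strand and the other members of this cluster are on the plus strand. Apoc2 (19671579 to 19677941) and Apoe (19696109 to 19699188) are the outer members of a second cluster on chromosome 7, all on the minus strand, with Apoc4 and Apoc1 between them. Apoa2 is on chromosome 1 (171225054 to 171226379), Apob on chromosome 12 (7977648 to 8016835), Mttp on chromosome 3 (138089854 to 138144968) and Apom on chromosome 17 (35128997 to 35132050). No source used here says whether strand was used in counting. Mttp overlaps Trmt10a on the opposite strand, which read 8.04 ± 1.07 CPM in WT fat (SD, n = 5), close to the fat level of Mttp, so the low Mttp values in fat are uncertain. Apoa4 and Apoa5 also have antisense partners (Gm10680 read at most 4.09 CPM, and Gm47528 and Gm47544 are not analysed here), and Gm44805 overlaps Apoc2 on the same strand, at 10.1 CPM in WT liver and 0 counts in fat.

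Promoter windows of 300 bases (250 before to 50 after the start, RefSeq, GRCm38.p6) were matched for 9 of the 10 genes, all but Apoc3. Those of Apoa1 and Apoa2, the HDL pair compared below, and of Apoe, the member with a high level in both tissues, are shown 5′ to 3′ with the motifs found in capitals. They lie at chr9:46228380-46228679 (plus strand), chr1:171224804-171225103 (plus strand) and chr7:19699139-19699438 (minus strand).
Apoa1: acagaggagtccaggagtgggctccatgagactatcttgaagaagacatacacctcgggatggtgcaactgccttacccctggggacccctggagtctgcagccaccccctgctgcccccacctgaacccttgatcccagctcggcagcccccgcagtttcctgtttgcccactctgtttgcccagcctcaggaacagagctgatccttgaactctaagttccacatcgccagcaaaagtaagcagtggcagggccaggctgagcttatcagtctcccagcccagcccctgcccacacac
Apoa2: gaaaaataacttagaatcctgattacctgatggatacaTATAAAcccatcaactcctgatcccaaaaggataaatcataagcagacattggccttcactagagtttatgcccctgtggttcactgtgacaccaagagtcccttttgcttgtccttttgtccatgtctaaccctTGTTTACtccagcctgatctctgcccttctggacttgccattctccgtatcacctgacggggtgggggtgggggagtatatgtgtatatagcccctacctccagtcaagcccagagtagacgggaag
Apoe: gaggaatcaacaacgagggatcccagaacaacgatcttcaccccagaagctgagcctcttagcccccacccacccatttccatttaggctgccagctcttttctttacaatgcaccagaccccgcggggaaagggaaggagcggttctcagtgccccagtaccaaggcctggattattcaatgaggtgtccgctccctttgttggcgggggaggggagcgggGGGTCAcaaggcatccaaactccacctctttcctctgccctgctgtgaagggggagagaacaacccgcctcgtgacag
The letters searched on both strands included the TATA box as TATAAA. For nuclear receptors the half-site AGGTCA, with its variant spelling GGGTCA, was searched. The longer searches were the HNF4 core CAAAGTCCA, a DR1 type site CAAAGGTCA that contains the first half-site, the forkhead core TGTTTAC and the C/EBP palindrome TTGCGCAA. The Apoa1 window held none of them. The Apoa2 window held TATAAA at −212 and TGTTTAC at −77 from the start site, and the Apoe window held GGGTCA at −28. Of 32851 such windows, 13.6% held TATAAA, 3.65% TGTTTAC and 13.7% GGGTCA. Among the other members, TATAAA was found in Apob at −60 and Apoa5 at −56, half-sites were found in Apom, Apoc2 and Apoa5, and none of the letters was found in Apoa4 or Mttp. These matches are descriptions of the letters only. The start site of the Mttp window lay 1550 bases from the gene's start in GENCODE M21. Those of Apom, Apoa4, Apoa1 and Apob lay 249, 148, 50 and 29 bases away, so absent letters describe only the windows used.

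Liver and fat were compared first, to place each gene. All 10 members were higher in liver than in fat in both genotypes. In WT mice 35.9% of 14739 tested genes were called higher in liver by edgeR (adjusted p under 0.05), and in KO mice 35.6% of 14603 were. Every liver library was above every fat library for all 10 members in each genotype, as for 30% of genes tested in WT and 29.9% in KO. Apom, Apoa4 and Apoa5 did not pass the filter on low counts within fat, with 0 to 17, 0 to 44 and 0 to 83 counts in a library. They entered these comparisons only through their liver counts, so their separation is no independent result. The members' median log2 difference was 10.3 in WT and 9.94 in KO, against −0.043 and −0.0537 over all genes tested. Together the 10 genes took up 3.39 ± 0.339% of the counts in WT liver and 3.21 ± 0.188% in KO liver, against 0.205 ± 0.027% in WT fat and 0.187 ± 0.057% in KO fat (SD, n = 5 each). In these bulk samples fewer cells of a type and less RNA per cell cannot be told apart. Depth scaling matters here, because the TMM factors differed 1.91-fold between WT liver and WT fat, and with plain library sizes the median of all genes moved to −0.974. The factor in KO was 1.86-fold. The fitted liver to fat ratios below include this factor, whereas the CPM values printed are scaled within each tissue. A fitted ratio is therefore larger than the quotient of the printed levels by roughly that factor.

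Per kb of transcript, Apoe, Apoa2 and Apoa1 formed the top of the order in WT liver, at 8255 ± 852, 7874 ± 1099 and 7014 ± 2764 CPM per kb (SD, n = 5). The ranges of these neighbours overlapped. Apoc3 followed at 1524 ± 214, then Apob at 571 ± 86.7, Apoa5 at 443 ± 32.2, Apoa4 at 252 ± 85.6, Apom at 238 ± 20.1, Apoc2 at 171 ± 39.7 and Mttp, the transfer protein, at 90.9 ± 5.75 CPM per kb. Neighbours in this lower part overlapped in range except Apoc3 and Apob, Apoa5 and Apoa4, and Apoc2 and Mttp. In KO liver Apoa2 (7832 ± 548) stood above Apoe (7694 ± 1577), with overlapping ranges, and Apoa1 (3893 ± 413) below both without overlap, while the lower part of the order was the same. In fat Apoe stood alone. It read 1430 ± 141 CPM per kb in WT fat and the next member, Apoa2, 11.7 ± 16.4, and Apoe made up 98.1 ± 2.35% of the members' counts there against 34.1 ± 4.28% in WT liver.

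**Figure D1:**
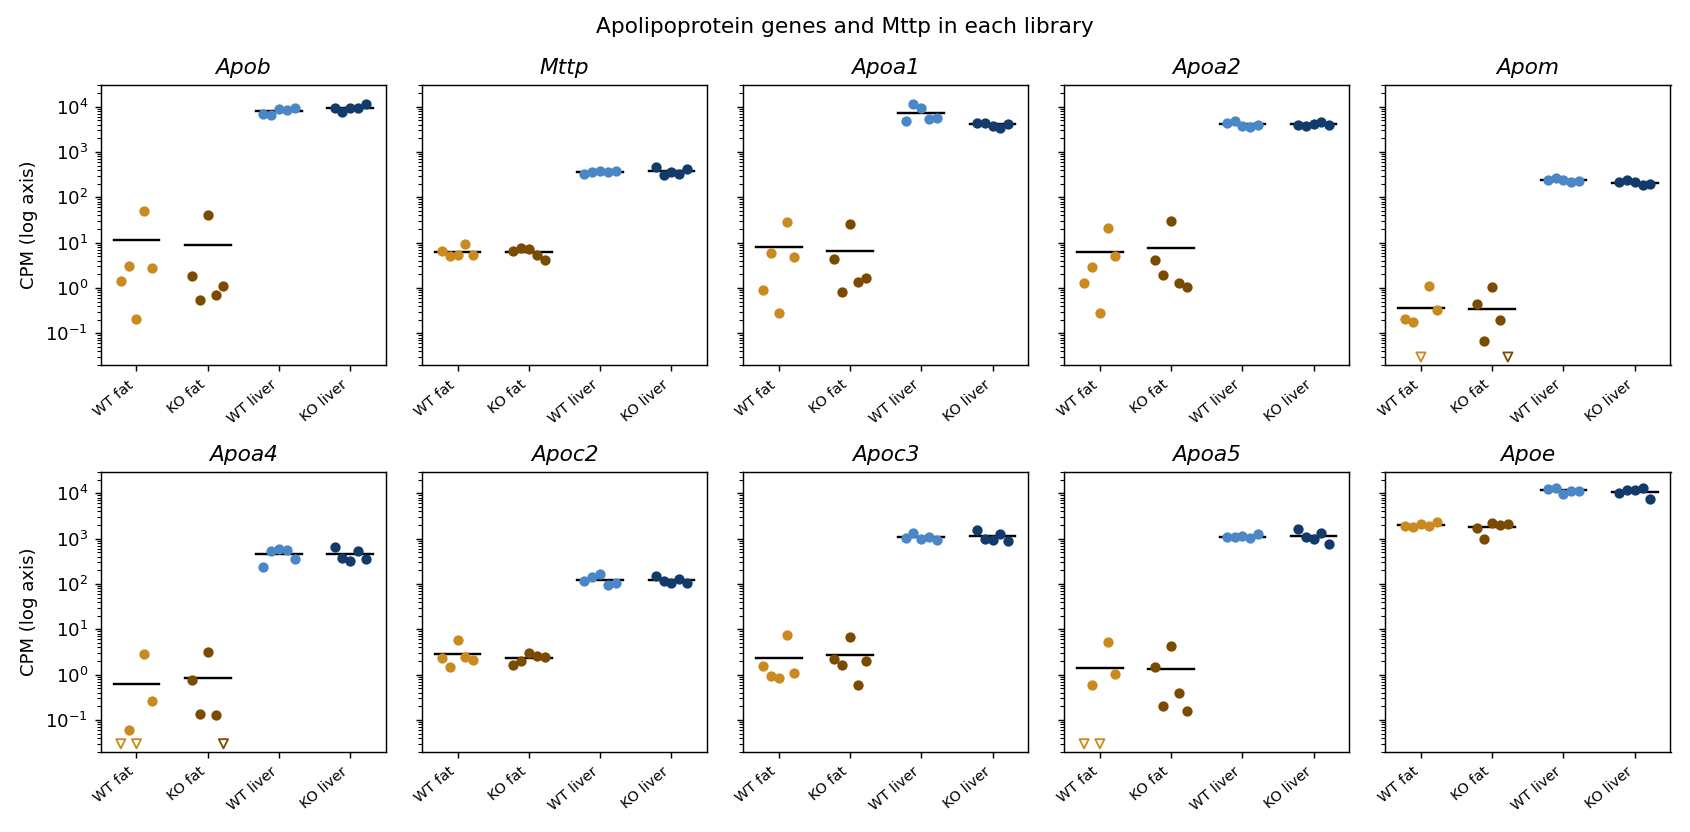
Level of each gene in every library, in CPM on a log axis, by tissue and genotype, with the group mean as a bar and open triangles for libraries with 0 counts. Apoe lies between 973 and 2299 CPM in fat, Mttp and Apoc2 lie in narrow bands of a few CPM, and the other members spread widely in fat with 1 high library in each genotype.

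Apob and Mttp, the pair that builds VLDL, were compared next. Apob read 6783, 6556, 8768, 8513 and 9194 CPM in the 5 WT livers and 1.41, 2.99, 0.208, 49.3 and 2.69 CPM in the 5 WT fat pads. Every liver value lay far above every fat value, and 1 fat library stood apart from the other 4. The fitted liver to fat ratio was 1332 (95% interval 141 to 12590). Mttp read 324, 363, 385, 358 and 370.5 CPM in WT liver and 6.63, 5.03, 5.42, 9.12 and 5.32 CPM in WT fat. Its fat values lay close together, and its ratio of 108 (80.0 to 145.7) was larger only than those of Apoe and Apoc2.

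Of the HDL genes, Apoa1 had 4 to 436 counts and Apoa2 4 to 412 in a fat library, and Apom was near the bottom of what could be counted. Liver to fat ratios in WT were 1720 (250 to 11830) for Apoa1, 1269 (235 to 6859) for Apoa2 and 1212 (617 to 2383) for Apom, the apolipoprotein M that binds sphingosine 1-phosphate. Apom had from 0 to 17 counts in a fat library, and 3 counts correspond to between 0.174 and 0.233 CPM there. Of the genes that set triglyceride clearance, Apoa4 had a ratio of 1332 (324 to 5473), Apoa5 of 1489 (293 to 7565) and Apoc3 of 854 (286 to 2551). Most WT fat counts of Apoa4 and Apoa5 were in WT fat 4 (44 and 83), so these 2 ratios rest largely on 1 fat library. Apoc2, the lipase activator, had a ratio of 83.4 (49.5 to 141). Apoe read 12523, 12936, 9858, 11462 and 11338 CPM in WT liver and 1919, 1781, 2116, 1951 and 2299 CPM in WT fat. All 5 liver libraries were above all 5 fat libraries, and the ratio of 10.9 (7.38 to 16.2, adjusted p = 1.78e-07 in edgeR) was the smallest of the 10. In KO mice it was 11.1 (6.69 to 18.5, adjusted p = 2.2e-06 in edgeR), and those of Mttp and Apoc2 were 114.9 (80.4 to 164) and 94.9 (71.1 to 127).

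KO and WT liver were compared to see whether the gene set differs with Prkce genotype. None of the 10 members was called by edgeR, where 0.00752% of the 13298 genes tested (1 gene) were. Apoa1, the core protein of HDL, was the member that stood apart. It read 4810.3, 11177, 9424, 5201 and 5687 CPM in WT liver and 4370.2, 4394, 3736, 3430.0 and 4217 CPM in KO liver. Each KO library was below each WT library, and the WT libraries spread widely, with WT liver 2 and WT liver 3 highest.

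The KO to WT ratio of Apoa1 was 0.555 (95% interval 0.400 to 0.770), with a p of 0.00185 and an adjusted p of 0.211 in edgeR, which placed it at rank 116 of 13298 genes by p. Ranges that separated with KO lower were seen for 1.28% of all genes tested. The two-sided exact permutation test over 252 splits gave p = 0.00794, the smallest p it can give. The members had 20 such tests in all, and their p-values are not adjusted for that number. DESeq2 gave Apoa1 an adjusted p of 0.0195, while the other alternatives gave 0.154 to 0.779, and without WT liver 2 the difference was smaller (log2 −0.641, adjusted p 0.421 in edgeR).

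Levels of cell markers stand beside this difference. Of 30 hepatocyte genes, 21 had negative differences in KO liver, 9 with an unadjusted p under 0.05 (13.1% of all genes tested had one, in either direction) and 0 called, and their summed level was 164660 to 199590 CPM in KO and 197780 to 219240 CPM in WT. Of 19 tested macrophage and Kupffer cell genes, 19 had negative differences, 13 with an unadjusted p under 0.05 and 0 called, with sums of 762 to 960 CPM in KO and 821 to 1555 CPM in WT. Skeletal muscle markers summed to at most 36.2 CPM in KO liver and up to 327 CPM in WT. The part of these markers in the Apoa1 difference was not tested. Without WT liver 4 and WT liver 2, the pair with the most muscle transcripts, the Apoa1 log2 difference was −0.721 (adjusted p 0.435 in edgeR). WT liver 2 was also the library with the highest Apoa1 level, at 11177 CPM, so this value does not separate the 2 traits.

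For Apoa2, the other main HDL protein, no difference was detected, and the difference between the Apoa1 and Apoa2 ratios was not tested. Apoa2 read 4418, 4892, 3692, 3499.8 and 3892 CPM in WT liver and 3829.8, 3816, 4232, 4467 and 3941 CPM in KO liver. The groups overlapped fully, and the ratio was 0.995 (0.839 to 1.18, adjusted p = 0.986 in edgeR). Counts of Apoa1 per count of Apoa2 were 1.09 to 2.55 in WT liver, with a median of 1.49, and 0.768 to 1.15 in KO liver, with a median of 1.07, so the ratio within a library overlapped between genotypes. Apom had a KO to WT ratio of 0.876 (0.760 to 1.01), with an adjusted p of 0.404 in edgeR and an exact permutation p of 0.0397 that became 0.111 with plain library sizes, and its ranges overlapped.

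The VLDL genes did not pass the test in liver. Apob read 9204, 7743, 9374, 9146 and 11387 CPM in KO liver, overlapping WT, with a ratio of 1.18 (0.965 to 1.44, adjusted p = 0.464 in edgeR). Mttp read 476, 306, 363, 319.9 and 419 CPM in KO liver, on both sides of the WT values, with a ratio of 1.05 (0.872 to 1.26, adjusted p = 0.853). Relative to Alb in the same library, Apob counts were 0.0875 to 0.139 per Alb count in KO liver and 0.0703 to 0.0870 in WT liver, without overlap, and Alb itself made up 8.93% of counts in KO and 10.1% in WT liver. That comparison was chosen after its values were seen, and the share of all genes that separate relative to Alb was not counted. Because Alb is the divisor, a lower Alb count raises the ratio even where Apob is the same.

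**Figure D2:**
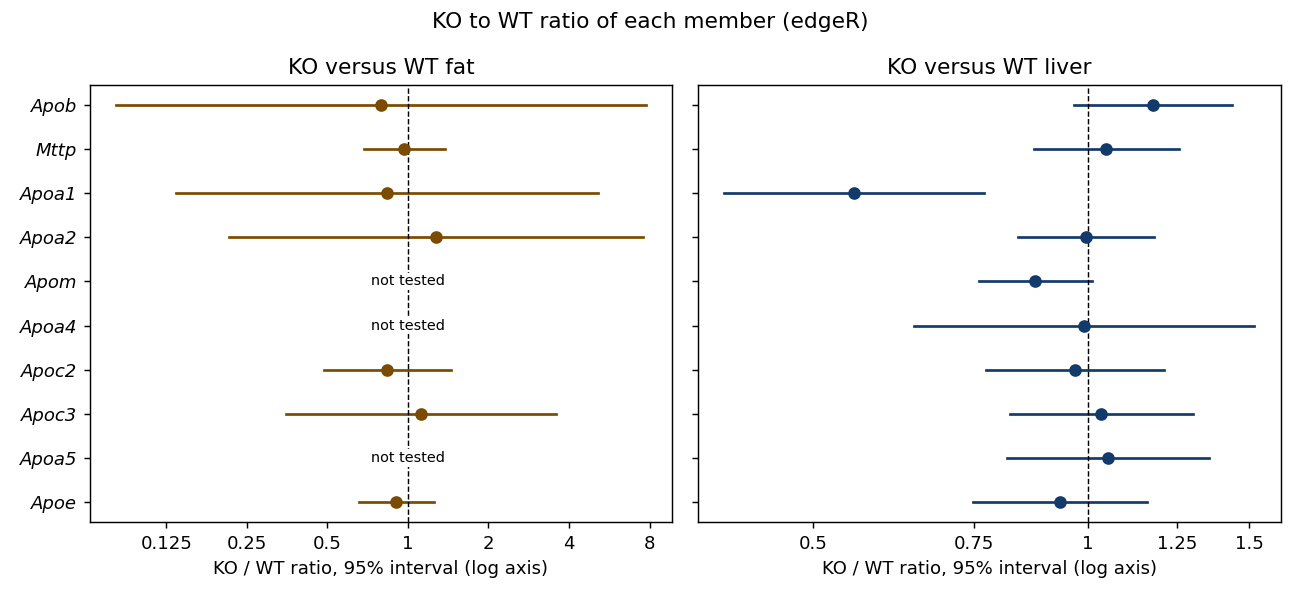
KO to WT ratio of each gene with its 95% interval from edgeR on log axes, fat on the left and liver on the right, where the dashed line marks no difference. In liver the interval of Apoa1 alone lies wholly below 1, and in fat the intervals of Apob, Apoa1, Apoa2 and Apoc3 span more than 10-fold. Apom, Apoa4 and Apoa5 were not tested in fat because they did not pass the filter on low counts.

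The genes of triglyceride clearance and the remnant ligand had ratios near 1 in liver, with intervals that leave room for moderate changes. Apoc2 had a ratio of 0.967 (0.773 to 1.21), Apoc3 of 1.03 (0.821 to 1.30), Apoa4 of 0.990 (0.645 to 1.52) and Apoa5, which promotes triglyceride hydrolysis, of 1.05 (0.815 to 1.36). Apoe read 10098, 12003, 11737, 13002 and 7327 CPM in KO liver, and KO liver 5 was lowest, with a ratio of 0.932 (0.749 to 1.16). The adjusted p-values of these 5 genes ran from 0.799 to 0.99 in edgeR. Apoc3 and Apoa5 were each highest in KO liver 1, at 1544 and 1674 CPM, as was Apoa4, at 668 CPM, a library in which Apoa1 read 4370.2 CPM.

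Apoa1 was also set beside its chromosome 9 neighbour Apoc3 within each library, without a test. Apoa1 per Apoc3 count was 4.69 to 9.42 in WT liver and 2.75 to 4.70 in KO liver, with ranges that overlapped at one edge, and Apoa5 per Apoc3 count was 0.806 to 1.32 in WT liver and 0.835 to 1.12 in KO liver.

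**Figure D3:**
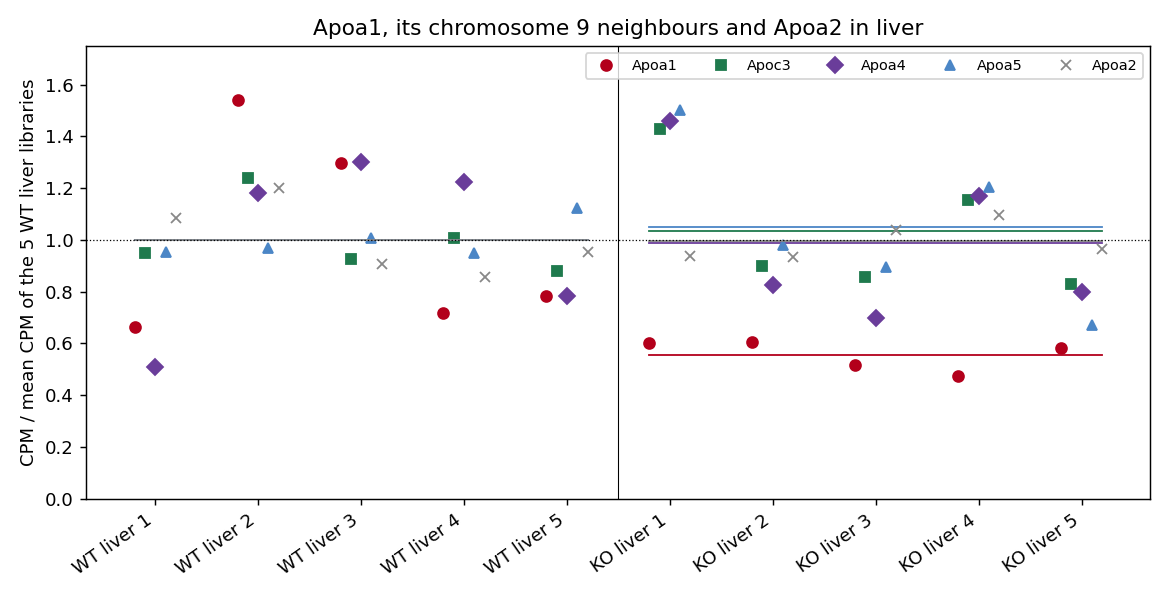
Level of Apoa1, its cluster neighbours Apoc3, Apoa4 and Apoa5, and Apoa2 in each liver library, divided by the gene's WT liver mean, with lines at the group means. The 5 KO points of Apoa1 lie below its lowest WT point around a mean of 0.555, while the neighbours and Apoa2 scatter around 1 in both genotypes.

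In fat the genotypes were compared for the 7 members that passed the filter. None was called, and 0% of the 14707 genes tested were called by edgeR, with 1048 of them (7.13%) at an unadjusted p under 0.05 and none of the members among those. Apoe read 1919, 1781, 2116, 1951 and 2299 CPM in WT fat and 1751, 973, 2262, 2042 and 2081 CPM in KO fat. KO fat 2, the library with bladder-type epithelial genes, was lowest, and the others overlapped. The ratio was 0.905 (0.656 to 1.25, adjusted p = 0.899 in edgeR), and without KO fat 2 the log2 difference was 0.0148.

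Mttp read 6.40, 7.77, 7.07, 5.30 and 4.04 CPM in KO fat and overlapped WT, with a ratio of 0.970 (0.684 to 1.38). Apoc2 read 2.33, 1.50, 5.77, 2.44 and 2.10 CPM in WT fat and 1.66, 1.98, 3.02, 2.65 and 2.50 CPM in KO fat, with a ratio of 0.837 (0.484 to 1.45). The highest Apoc2 library, WT fat 3, was also the one with the most Cd68, a macrophage marker, at 247 CPM, and the highest macrophage sum, 5446 CPM. The part of macrophages in the Apoc2 level was not tested. The intervals of Apob (0.0813 to 7.73), Apoa1 (0.136 to 5.13), Apoa2 (0.214 to 7.53) and Apoc3 (0.349 to 3.57) were too wide to show changes of several fold.

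In each genotype 1 fat library stood high for most members. WT fat 4 and KO fat 3, which hold the most Alb, were the highest in their group for Apob, Apoa1, Apoa2, Apoa4, Apoa5, Apom and Apoc3. In the other libraries Apob read 0.208 to 2.99 CPM in WT fat and 0.545 to 1.88 CPM in KO fat. The 27 hepatocyte genes other than Alb, Vtn and Cyp2e1 summed to 521 and 452 CPM in that pair and to 21.8 to 92.1 CPM in the other 8. With all 30 genes the sums were 5527 CPM in WT fat 4, 2461 CPM in KO fat 3 and 1478 to 2933 CPM in the other 8. By the full list KO fat 3 therefore did not stand apart. Cyp2e1 made up most of these sums, at 2392 to 4507 CPM in WT fat and 1396 to 2062 CPM in KO fat.

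Each fat level was therefore set beside the level it would have if the gene kept its liver proportion to Alb in that library. The proportion was taken from the livers of the same genotype, so it differs between WT and KO fat. By this measure 1 means the liver proportion. The median over 10 fat libraries was 0.866 for Apoa1 (0.290 to 1.63), 1.04 for Apoa2 (0.482 to 1.72), 1.02 for Apom (0 to 3.16), 0.763 for Apoa4 (0 to 2.50) and 0.759 for Apoa5 (0 to 1.93). Apob was lower, at 0.356 (0.144 to 1.36), and was near 1 only in the 2 libraries with the most Alb, at 1.36 in WT fat 4 and 0.915 in KO fat 3. Per 100 Alb counts these 2 libraries held 10.5 and 9.795 Apob counts, so the gap between them comes largely from the liver proportions used. Apoc3 was at 2.26 (1.2 to 6.01).

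Mttp, Apoc2 and Apoe, like Apoc3, lay above the liver proportion in every fat library. For Mttp the fat values are uncertain, because it overlaps Trmt10a as described above. Mttp had a median of 23.3 (4.00 to 119), Apoc2 of 31.5 (4.26 to 366) and Apoe of 259 (36.1 to 1420). Each was lowest in the pair with the most Alb. Because Alb is the divisor, a higher Alb level lowers the value even where the gene's own level is the same. The low values in that pair are therefore no separate result. The control gene Ttr, a hepatocyte secretory protein that is no member, had a median of 0.763 (0 to 5.61). Ttr does not stand for the whole hepatocyte list, whose other genes were not measured this way. Cyp2e1 of that list averaged 3017 CPM beside 134.5 CPM of Alb in WT fat. In WT liver the 2 means were 9502 and 102600 CPM. This measure compares proportions and does not tell which cells held the RNA.

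**Figure D4:**
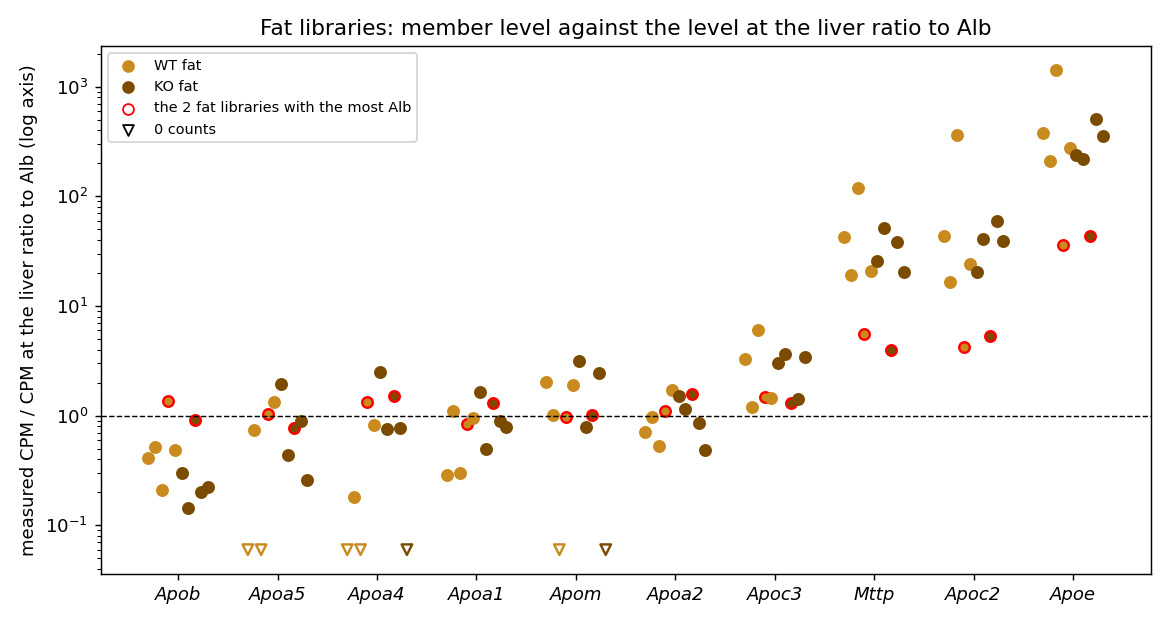
Measured fat level of each gene divided by the level at its liver proportion to Alb, per fat library on a log axis, with red rings for the 2 libraries that hold the most Alb and triangles for 0 counts. Apoa1, Apoa2, Apoa4, Apoa5 and Apom scatter around 1, Apob sits below 1 outside the ringed pair, and Apoc3, Mttp, Apoc2 and Apoe lie above 1 in every library.

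The KO effect in fat minus that in liver was tested for each member. Apom, Apoa4 and Apoa5 entered this test only through their liver counts, because they did not pass the filter within fat. No member was called, where 0% of 15652 genes were, with 839 (5.36%) at an unadjusted p under 0.05 in edgeR and none of the members among them. The differences ran from a log2 of −0.573 for Apob to 0.587 for Apoa1, with adjusted p-values of 0.987 to 1. They rest in part on the fat values, whose errors are large for most members, and a difference of the Apoa1 effect between tissues was not detected.

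Apoc1 and Apoc4, between Apoc2 and Apoe in their cluster, were followed as neighbours. Apoc1 read 2347 ± 511 CPM in WT liver and 68.5 ± 18.7 CPM in WT fat (SD, n = 5), a ratio of 64.9 (40.6 to 103.8), and Apoc4 420.1 ± 44.8 and 0.921 ± 1.2 CPM, a ratio of 842 (323 to 2197). Within this 27610-base stretch the liver to fat ratio thus ran from 10.9 for Apoe to 842 for Apoc4. Apoe per Apoc1 count was 3.96 to 5.91 in liver and 19.7 to 43.9 in fat, without overlap. The share of all gene pairs that separate between the tissues was not counted. In liver the KO to WT ratios of Apoc1 and Apoc4 were 0.906 (0.734 to 1.12) and 0.945 (0.795 to 1.13).

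Genes of the wider pathway were counted from 6 lists. None of their genes was called between KO and WT in either tissue. In liver, of 23 genes of lipoprotein assembly and secretion, 11 had positive and 12 negative differences, and 0 had an unadjusted p under 0.05. Of 10 genes of HDL formation 2 were positive and 8 negative, with Lcat, the enzyme that esterifies HDL cholesterol, at a ratio of 0.878 (0.759 to 1.02) and a list median log2 of −0.0818 against 0.000113 over all genes. Of 8 genes of the triglyceride lipase system 2 were positive and 6 negative, and Lpl, lipoprotein lipase, had a ratio of 0.604 (0.453 to 0.806, adjusted p = 0.227 in edgeR) at 42.8 ± 10.3 CPM in WT liver. Of 14 tested receptors 5 were positive and 9 negative, with Apobr, an Apob-binding receptor of macrophages, at 0.550 (0.390 to 0.777, adjusted p = 0.219) and Cd36, a fatty acid transporter, at 1.29 (1.01 to 1.63, adjusted p = 0.355).

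The factors known to act on apolipoprotein promoters were split evenly in liver, 13 positive and 13 negative of 26. Cebpb, a C/EBP factor, read 32.1, 49.3, 26.9, 57.3 and 47.9 CPM in WT liver and 108, 93.8, 76.5, 87.6 and 59.8 CPM in KO liver. Every KO library was above every WT library, as in 1.51% of all genes tested, with a ratio of 1.99 (1.44 to 2.76) and an adjusted p of 0.2 in edgeR. Nr5a2, which encodes LRH-1, also separated (ratio 1.22, 1.07 to 1.39, adjusted p 0.235), Nr0b2 had a ratio of 0.673 (0.510 to 0.888, adjusted p 0.254) and Hnf4a, the main hepatocyte activator of this family, one of 0.884 (0.749 to 1.04). In fat 9 of 18 tested factors were positive, and Cebpb had a ratio of 2.86 (1.45 to 5.64, adjusted p = 0.687) with overlapping ranges.

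Between tissues the lists divided. In WT mice edgeR called 18 of 23 assembly genes higher in liver and 2 lower, and 21 of 26 factors higher and 2 lower, against 35.9% of all genes higher. The assembly genes with the smallest p were Pla2g12b, with a ratio of 1594 (1061 to 2395), and Tm6sf2, with 132.7 (98.9 to 178), both needed to lipidate VLDL. Of 16 tested receptors 7 were higher and 9 lower in liver. Lpl was the reverse of the members, 116-fold lower in liver (adjusted p = 2.98e-08 in edgeR), and Abca1, which lipidates Apoa1, had a ratio of 1.10 (0.860 to 1.40).

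Genes with the most similar pattern were ranked by Pearson r of log2 CPM over the 10 libraries of a tissue, as a description; the libraries share depth, genotype groups and the single libraries named above. In liver (12362 genes compared) Apoa1 was most like Cd24a (0.973), Ctse (0.965) and Ddx39 (0.954), Apob like Zfp91 (0.979), Lats1 (0.978) and C1galt1 (0.977), and Apoe like Tmbim6 (0.978), Lonp1 (0.95) and Trim3 (0.944). Mttp was most like Hsd17b7 (0.947) and Apom like Hba-a1 (0.944). In fat (14331 genes compared) Apob was most like Alb (0.992), Apoa1 like Fabp1 (0.986) and Apoa2 like Plg (0.986), 3 members that were each highest in the pair of libraries with the most Alb. Apoe in fat was most like Smpdl3a (0.962), Lix1l (0.959) and Cst3 (0.958), none of them a gene on the hepatocyte list.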

How the data were processed

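Per the labels' protocols, a Qiagen RNeasy kit yielded the RNA and a stranded TruSeq kit the mRNA libraries. Build GRCm38 and the tools RSEM 1.2.12, STAR 2.4.0d, Trim Galore 0.2.8 and DESeq2 are listed in the submitters' processing notes, without order or settings. No annotation release or strand setting is named there. The authors deposited unnormalized expected counts, with fractions in 3.95% to 5.8% of each library's values.

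Expected counts were rounded. Genes passing filterByExpr (minimum count 10, minimum total 15) were scaled by TMM and tested in R 4.3.3 by the robust quasi-likelihood test of edgeR 4.0.16, KO against WT in each tissue, liver against fat in each genotype, and the interaction over 20 libraries. The Benjamini-Hochberg adjustment covered all genes tested, with calls at adjusted p under 0.05. Alternatives were limma-voom (limma 3.58.1) and DESeq2 1.42.0. Exact permutation tests used log2 CPM with a prior count of 2. The 95% intervals are from edgeR. Other alternatives were other scalings, filters, a replicate block, all libraries in 1 fit and leaving out each library; leaving the scaling out between tissues was chosen after seeing the data. The steps were tested on simulated data.

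The members and lists were chosen with earlier results of these data known. Genes named are the members, Prkce, cluster neighbours, up to 4 genes of each list with the smallest p, marker genes, and for likeness 3 genes per member with a mean of at least 1 CPM; Abca1, Hnf4a, Lcat and Ttr were added for their roles. Gene positions are from GENCODE M21, and 48058 of 48440 IDs had a symbol. Each library is from 1 mouse. Pairs of libraries in a group differed by more than counting error (chi-square per degree of freedom at least 14.73).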

Additional observations from a re-analysis of the deposited data

Results flagged for a closer look

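In 40 groups of 5 libraries (10 genes, 4 groups), 12 single libraries lay far from the rest of their group by Dixon's test at a critical value of 0.71; chance gives about 1 in 20. All 12 were in fat. WT fat 4 was the high library for Apob (49.3 CPM), Apoa1 (28.0 CPM), Apoa2 (20.9 CPM), Apoa4 (2.83 CPM), Apoc3 (7.45 CPM) and Apoa5 (5.33 CPM). KO fat 3 was the high library for Apob (40.7 CPM), Apoa1 (25.2 CPM), Apoa2 (30.3 CPM), Apoa4 (3.24 CPM) and Apoc3 (6.85 CPM). These are the libraries with the most Alb, and the flags are not independent of each other. WT fat 3 was the high library for Apoc2, at 5.77 CPM, and held the most Cd68.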

How the results depend on the processing

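All 10 members stayed higher in liver in 196 of 196 values in WT and 187 of 187 in KO over the alternatives run. The alternatives refit the same libraries, so these values are not separate results. Apom, Apoa4 and Apoa5, which passed the main filter only through their liver counts, are among them. KO against WT was called for 13 genes in fat with DESeq2 (0 in edgeR), and in liver for 137 with DESeq2, 15 without a filter, 3 with a replicate block, 2 with all 20 libraries in 1 fit and 3 without WT liver 4 and WT liver 2 (1 in edgeR); leaving out 1 library gave 0 to 3. The interaction gave 2 with DESeq2. Same-numbered KO and WT libraries deviated together (r over 0.1) in 2 of 5 pairs in fat and 1 of 5 in liver. A library correlated best with its own number in 2 and 1 of the pairs. No label says whether the numbers pair mice across genotypes, and these correlations cannot decide it. Same-numbered fat and liver libraries may come from 1 mouse, which no label states; they deviated together in 2 of 5 pairs in WT and 0 of 5 in KO, and the comparisons between tissues treat all libraries as independent; with the number as a block they called 10537 genes in WT (10947 without) and 10599 in KO (10863 without). Exact permutation p-values under 0.05 numbered 2, and 1 with plain library sizes.

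Small log2 differences changed sign. In fat, without the pair with the most Alb, Mttp was 0.0707 and Apoa2 −0.18, and Apoa2 with the block was −0.202. In liver, Apoa2 was 0.00268 with limma-voom, 0.00729 without a filter, 0.00112 with a 1 CPM filter, 0.000542 with the block, 0.000524 in 1 fit and 0.0194 without the muscle pair, and Apoa4 was 0.011, 0.00173 and 0.196 with voom, no filter and without that pair. For the interaction, without the Alb pair Mttp was 0.00146, Apoa2 −0.193 and Apoa5 0.304, Apoa5 was 0.883 with voom and 0.14 with the block, and Apoc3 was −0.0295 without the muscle pair.

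Leaving out 1 library moved fat log2 differences over −3.41 to 2.29 (Apob), −0.144 to 0.128 (Mttp), −1.94 to 1.16 (Apoa1), −1.53 to 1.7 (Apoa2), −0.418 to 0.176 (Apoc2), −0.559 to 1.25 (Apoc3) and −0.234 to 0.0148 (Apoe). In liver they moved over −0.966 to −0.641 (Apoa1), −0.0323 to 0.133 (Mttp), −0.0581 to 0.0656 (Apoa2), −0.197 to 0.0977 (Apoa4), −0.14 to 0.0696 (Apoc2), −0.0963 to 0.136 (Apoc3), −0.0918 to 0.196 (Apoa5) and −0.175 to 0.0106 (Apoe). The interaction moved over −3.67 to 2.04 (Apob), −0.219 to 0.0562 (Mttp), −1.11 to 1.99 (Apoa1), −1.55 to 1.7 (Apoa2), −0.813 to 1.08 (Apom), −1.31 to 3.2 (Apoa4), −0.379 to 0.21 (Apoc2), −0.632 to 1.19 (Apoc3), −1.41 to 1.51 (Apoa5) and −0.166 to 0.107 (Apoe). The causes were not tested. DESeq2 gave no adjusted p for 10 member values, which are left out.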

Other observations

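Among the other apolipoproteins, Apol9a and Apol9b are interferon-inducible members of the apolipoprotein L family. Their KO to WT ratios in fat were 0.440 (0.236 to 0.819) and 0.564 (0.384 to 0.827), each with an adjusted p of 0.687 in edgeR. They had the smallest p-values of the 14 genes tested from that list. The ranges of Apol9b did not overlap, as for 0.68% of all genes tested with KO lower. In liver the ratios of Apol9a and Apol9b were 1.14 (0.741 to 1.75) and 1.05 (0.776 to 1.41). Apod, a lipocalin, and Apol6 were 59.7-fold and 575-fold lower in WT liver than in WT fat (adjusted p = 1.87e-06 and 7.33e-10 in edgeR), against the direction of all 10 members.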
